A study of Mus musculus with 6 samples.

Results

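Alveolar macrophages made up 1229 of the 9994 barcodes kept from a pooled single-cell table of mouse lung (12.3%, exact 95% interval 11.7 to 12.96%). They were chosen by measured counts: a barcode was a member if at least 3 of the 6 genes Chil3, Ear1, Ear2, Krt79, Plet1 and Atp6v0d2 had a UMI (a tag that counts each captured RNA molecule once), if Cd79a, Cd3e and Ly6c2 together had 0 UMIs, and if Col1a2 and Col3a1 together had under 3. The levels of these 11 genes are therefore given as a description of the choice and support nothing. The study set out to divide the mesenchymal cells of normal and fibrotic lung into subtypes. Its samples were SMA+Tm+, SMA-Tm+ and SMA-Tm- cells of mice 21 days after bleomycin (a drug that scars the lung), and SMA+TM+, SMA-TM+ and SMA-TM- cells of normal mice (day 0), with 1 sample each. All mice carried SMA-GFP, which reports smooth muscle actin, and Tbx4cre with RosaTdTomato, which labels cells in which the Tbx4 gene drove Cre. All cells had been sorted as negative for Epcam, CD31 and CD45, so the leukocytes described here are those that were still present after a sort against the leukocyte antigen CD45. Ages and the number of mice per sample are not given in the sources used here.

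Alveolar macrophages live on the air side of the lung's gas exchange surface, where they take up and break down surfactant lipids, dust and microbes. They arise before or soon after birth, renew themselves in place, and depend on granulocyte-macrophage colony-stimulating factor (GM-CSF), which induces the lipid regulator PPAR gamma. Interstitial macrophages, which sit in the tissue between air space and vessel, instead depend on the receptor Csf1r and express complement C1q and high MHC class II. In bleomycin injury, monocytes that enter the lung can become macrophages of a mixed type that express genes such as Spp1, Trem2 and Gpnmb.

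The barcodes of the table end in a suffix from 1 to 6, which neither the labels nor the column names tie to a day or a gate. Suffixes are therefore given as parts of 1 pooled sample, each with its own value, and days and gates are not compared. Suffixes 1 to 6 held 214, 231, 63, 534, 174 and 13 alveolar macrophages. Of the kept barcodes in each, these were 16.2%, 11.6%, 4.55%, 17.7%, 10.99% and 1.88%. The share was highest in suffixes 1 and 4 and lowest in suffix 6, and the exact intervals of suffixes 1 and 4 overlapped. Among leukocytes the order was similar but wider: alveolar macrophages were 53.5% and 69.8% of members plus other leukocytes in suffixes 1 and 4, against 2.96% to 18.8% in the other suffixes. The sort and the calling of cells can set these shares. Without suffix 4 the number of alveolar macrophages was 695.

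**Figure D1:**
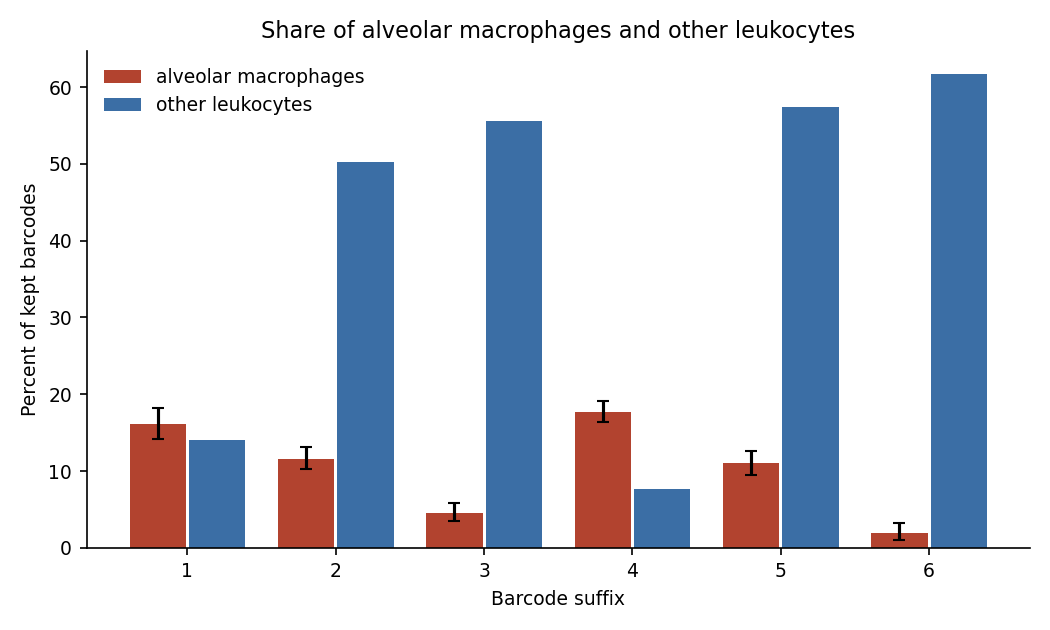
Percent of kept barcodes in each barcode suffix that were alveolar macrophages (left bars, with exact 95% binomial intervals that cover counting error only) and other leukocytes (right bars). Alveolar macrophages ranged from 1.88% in suffix 6 to 17.7% in suffix 4, and outnumbered the other leukocytes in suffixes 1 and 4.

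The alveolar macrophages held 6006834 of 34661395 UMIs of kept barcodes, with a median of 4820 UMIs and 1961 genes each. They were compared with 3 sets: 3520 other leukocytes (non-members with a UMI of Ptprc, the gene for CD45; median 2855.5 UMIs), all 8765 other kept barcodes (median 2535), and 193 non-members with UMIs of at least 2 of the 3 C1q genes and no lymphocyte genes (median 4401), which stand for C1q-positive macrophages. Levels are UMIs of a gene per 1000000 summed UMIs of the set (CPM). Free RNA in a droplet run puts UMIs of abundant genes into other cells. The 2067 non-members with at least 2 UMIs of Cd79a or Cd3e, called lymphocyte barcodes (median 2365 UMIs), give a rough guide. They were not limited by macrophage markers, so barcodes that also hold an alveolar macrophage can be among them. In suffixes 1 to 6 they numbered 76, 471, 624, 80, 510 and 306. Their Chil3 level there was 627, 88.3, 6.80, 353, 206 and 72.5 CPM. The part of such barcodes in the levels of this set was not tested. Of the kept barcodes, 98 had a sequence that occurs with more than 1 suffix, 6 of them members, and no sequence belonged to 2 members. Scrublet called 5 members doublets.

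The 6 genes of the choice were high in every suffix. Chil3 encodes Ym1, a secreted chitinase-like protein. It stood at 5611, 5993, 5392, 4267, 4352 and 3937 CPM in the alveolar macrophages of suffixes 1 to 6 (4719 CPM in all), against 299 CPM in other leukocytes. Plet1, a surface protein, and Krt79, a keratin, varied little between suffixes, at 569 to 818 CPM and 451 to 655 CPM. Atp6v0d2, a subunit of the proton pump that acidifies lysosomes, spanned 412 to 625 CPM. The ribonuclease gene Ear1 spanned 382 CPM in suffix 4 to 889 CPM in suffix 1, and Ear2 spanned 1127 to 1694 CPM in the same 2 suffixes. A Chil3 UMI was found in 98.7% of alveolar macrophages, against 12.6% of other leukocytes. In lymphocyte barcodes the share was 5.22%. With each barcode thinned to 1000 UMIs, which left out 31, 54 and 27 shallower barcodes, these shares were 92.8%, 7.01% and 1.96%. By the rule, members had 0 UMIs of Cd79a, Cd3e and Ly6c2.

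Ear1 and Ear2 are neighbouring copies on chromosome 14, and counts of the 2 genes cannot be fully told apart. The stretches upstream of their RefSeq starts are also shown, which do not bear on the counts. Of 36 windows of 50 bases over the last 400 bases of the longest coding transcript (GENCODE, GRCm38), 21 windows of Ear1 and 10 of Ear2 also occur in transcripts of other genes of the Ear family. The windows of Chil3, Krt79, Plet1 and Atp6v0d2 occur in no other gene. Ear1 lies at 14:43818765-43875517 on the minus strand and Ear2 at 14:44102654-44103534 on the plus strand. The 250 bases before the start of each gene (RefSeq, build GRCm38.p6; Ear1 at chr14:43819640-43819889 on the minus strand, Ear2 at chr14:44102404-44102653 on the plus strand) align with 246 identical and 2 differing bases (99.2%). In GENCODE the longest form of Ear1 starts further upstream, so the stretch shown for Ear1 lies inside the gene as that annotation gives it. The sequences are printed from 5′ to 3′ with capitals at the bases that differ or have no aligned partner.
Ear1: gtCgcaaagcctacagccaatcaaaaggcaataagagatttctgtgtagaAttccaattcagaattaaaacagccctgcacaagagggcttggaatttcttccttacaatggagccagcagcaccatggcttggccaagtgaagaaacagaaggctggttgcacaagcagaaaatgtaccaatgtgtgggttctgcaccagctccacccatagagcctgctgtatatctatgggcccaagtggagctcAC
Ear2: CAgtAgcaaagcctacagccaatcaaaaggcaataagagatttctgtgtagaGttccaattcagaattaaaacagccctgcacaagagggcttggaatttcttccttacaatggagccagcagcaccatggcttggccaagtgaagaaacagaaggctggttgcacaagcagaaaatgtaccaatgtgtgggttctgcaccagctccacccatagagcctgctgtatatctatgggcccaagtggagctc

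Most alveolar macrophages carried more markers than the rule asked for. All 6 markers had a UMI in 590 members (48.0%), 5 in 356, 4 in 175 and 3 in 108. Just outside the rule, 96 barcodes that passed the exclusions had 2 markers, 399 had 1 and 2200 had none. Siglecf, which the rule did not use, was higher with each added marker. It stood at 61.8 CPM in members with 3 markers and 171 CPM in those with 6, against 7.60 CPM in barcodes with 2. C1qa, of another kind of macrophage, stood at 88.6 CPM in members with 3 markers and 4.17 CPM in those with 5 and 15.6 CPM in those with 6, against 346 CPM in barcodes with 2. The median depth moved as well, at 3004.5 UMIs in members with 3 markers, 5253 in those with 6 and 4505.5 in barcodes with 2. Its part in these differences was not tested.

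**Figure D2:**
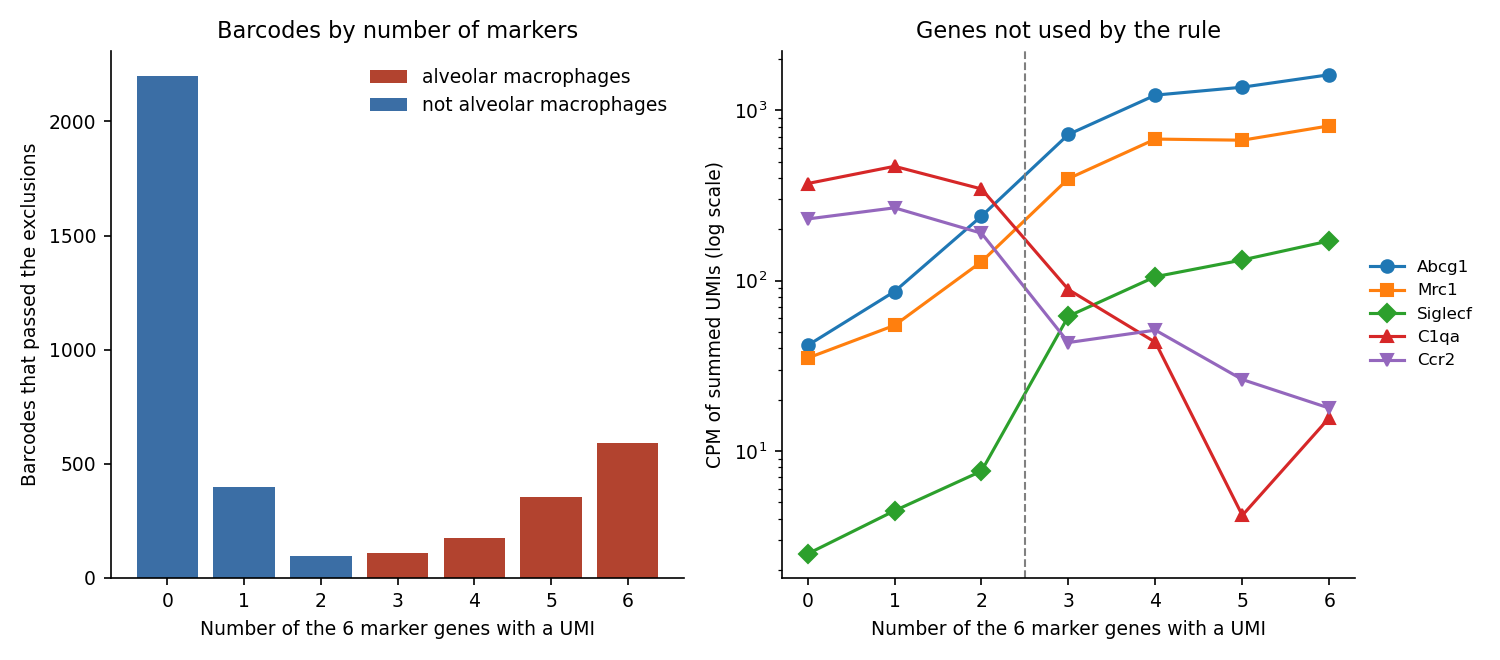
Left, number of barcodes that passed the exclusions by how many of the 6 marker genes had a UMI; right, CPM (log axis) of 5 genes the rule did not use, over the same barcodes, with the dashed line at the threshold of the rule. Members with 3 markers had 61.8 CPM of Siglecf, against 7.60 CPM in barcodes with 2.

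A further 120 barcodes with 3 or more markers were kept out by the exclusions, 91 of them by Cd79a, Cd3e or Ly6c2 and 31 by collagens, with 2 caught by both. These 120 had a median of 8486 UMIs and 78.0 CPM of Siglecf. Since 217 of the other leukocytes had 2 or more markers, ratios against other leukocytes understate the difference for genes that only alveolar macrophages express. Against other leukocytes with at most 1 marker (a set added after the data were seen), the median log2 ratio of the identity genes was 5.19 in place of 3.73.

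Against other leukocytes, 8023 genes were measured (a mean of both levels of at least 10 CPM). Of these, 1411 (17.6%) were at least 2-fold higher and 902 (11.2%) at least 2-fold lower in alveolar macrophages. Against all other kept barcodes, 1218 of 8690 genes (14%) were higher and 1575 (18.1%) lower. Against C1q-positive barcodes, 1193 of 7736 genes (15.4%) were higher and 600 (7.76%) lower. The median log2 ratio of all measured genes was 0.15, -0.06 and 0.24 in these 3 comparisons. With ratios centred on that median, also added after the data were seen, the comparison with C1q-positive barcodes gave 784 genes higher and 786 lower, and that with other leukocytes gave 1167 and 1086. Suffix 4 held 3010188 of the 6006834 UMIs of members but 231 of the 3520 other leukocytes, so pooled ratios also mix suffixes. The whole table counts as 1 sample, so no test was made. A gene is called higher or lower by the 2-fold limit, and 95% intervals in brackets cover counting error only.

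**Figure D3:**
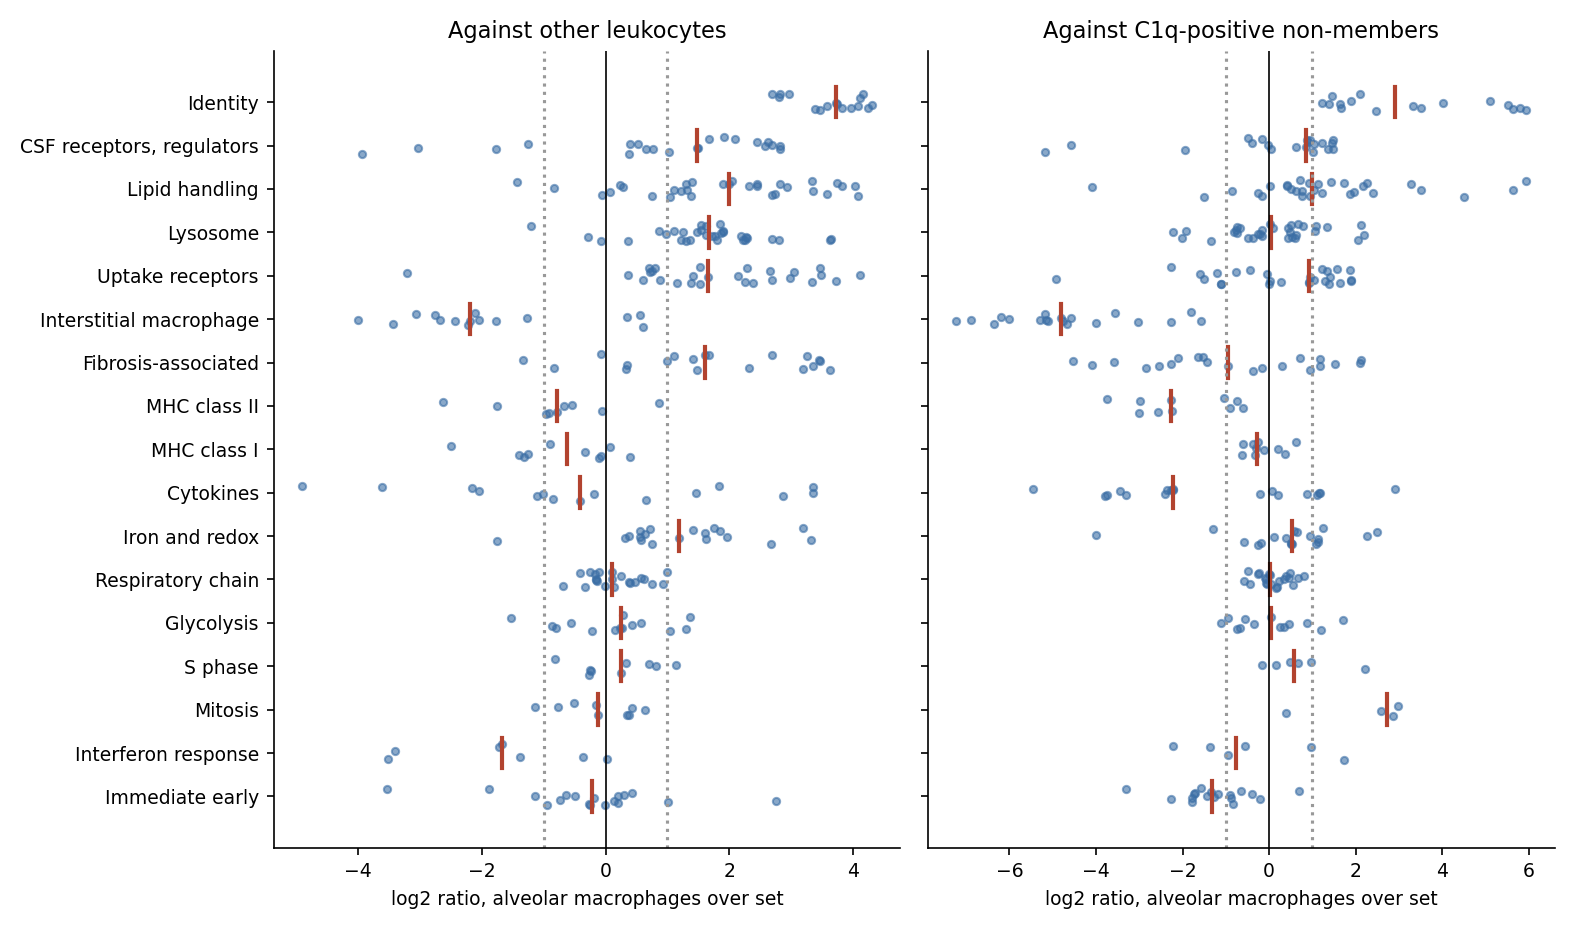
log2 ratio of summed CPM for each measured gene of 17 lists (points) in alveolar macrophages over other leukocytes (left) and over C1q-positive barcodes (right), with the median of each list (red bar), no difference (solid line) and 2-fold (dotted lines). The identity genes had medians of 3.73 and 2.90, and the interstitial macrophage genes medians of -2.19 and -4.81.

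The label was also compared with genes the rule did not use. Their list was chosen with earlier results of these data known, so it is not an independent check. All 16 measured of 18 identity genes in the table were at least 2-fold higher in alveolar macrophages than in other leukocytes (median log2 ratio 3.73), and all 16 were also higher than in C1q-positive barcodes (median 2.90). Siglecf, the sialic acid receptor by which alveolar macrophages are sorted, stood at 200.5, 164, 163, 130, 125 and 180 CPM in the members of suffixes 1 to 6, against 7.32 CPM in other leukocytes. It was 19.7-fold higher (log2 4.30, 4.00 to 4.62), and every suffix of the members lay above the pooled level of the other leukocytes. A Siglecf UMI was found in 45.1% of members, against 1.9% of other leukocytes and 0.822% of lymphocyte barcodes, and in 13.1%, 0.346% and 0.098% after thinning. Olr1, a receptor for oxidised lipoprotein, stood at 228 to 404 CPM in the suffixes of the members, against 17.3 CPM in other leukocytes (log2 4.16, 3.96 to 4.36). The keratin gene Krt19 stood at 174.5 CPM in members, against 9.27 CPM in other leukocytes. The integrin gene Itgax, which encodes CD11c, was 7.77-fold higher than in other leukocytes and 2.60-fold higher than in C1q-positive barcodes. Siglec1, another sialic acid receptor, stood at 29.1 CPM in members, against 4.18 CPM in other leukocytes.

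The scavenger receptor gene Marco was sparse. It had 187 UMIs in all members (31.1 CPM), against 24 UMIs in other leukocytes (1.79 CPM), a log2 ratio of 4.12 (3.50 to 4.80). A Marco UMI was found in 7.32% of members, against 0.312% of other leukocytes and 0.0484% of lymphocyte barcodes, and after thinning in 2.84% of members, against 0.0577% of other leukocytes. In suffixes 1 to 6 its level in members was 43.6, 77.0, 54.3, 16.9, 9.27 and 171 CPM, lowest in suffixes 4 and 5 and highest in suffix 6, which has 18 UMIs in 13 members. The 5% of members with the most Marco held 85.0% of its UMIs, against 11.7% of all UMIs in the 5% of members with the highest totals.

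Receptors and regulators of the GM-CSF axis were mostly higher than in other leukocytes, but less often than in C1q-positive barcodes. Of 21 measured genes for colony-stimulating factor receptors and macrophage regulators, 12 were higher and 4 lower than in other leukocytes. The median log2 ratio was 1.47, and 0.69 to 1.63 within suffixes. Against C1q-positive barcodes, 7 of 20 measured were higher, 3 lower and 10 within 2-fold (median 0.85). Csf2ra, another chain of the GM-CSF receptor, had log2 ratios of 1.03 to other leukocytes and -0.41 to C1q-positive barcodes. Csf2rb, the signalling chain of the GM-CSF receptor, stood at 394 CPM in members, against 66.1 CPM in other leukocytes and 142 CPM in C1q-positive barcodes. Pparg stood at 87.3, 92.7, 73.5, 57.8, 51.9 and 104 CPM in suffixes 1 to 6 of the members, against 10.3 CPM in other leukocytes (log2 2.69, 2.41 to 2.98). Without suffix 4 this ratio was 3.37. Its partner receptor Rxra and the sterol sensor Nr1h3 had log2 ratios of 2.62 and 2.82. Bhlhe41, a repressor that holds the alveolar macrophage state, was 7.04-fold higher than in other leukocytes.

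Maf, which restrains self-renewal of macrophages, stood at 8.32 CPM in members, against 68.2 CPM in other leukocytes and 198 CPM in C1q-positive barcodes. The repressor gene Bach2, used by lymphocytes, stood at 3.66 CPM in members, against 56.3 CPM in other leukocytes. Its log2 ratio was -3.94, and -4.62 without suffix 5. Irf8, a regulator of monocytes and dendritic cells, was lower than in other leukocytes (log2 -1.25, -1.37 to -1.14). Csf1r, the receptor on which interstitial macrophages depend, stood at 124 CPM in members, against 94.3 CPM in other leukocytes and 474 CPM in C1q-positive barcodes. Csf2ra, Csf2rb and Csf1r were named after their values were seen.

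Genes for the uptake, storage and export of lipid were mostly higher. Of 31 measured, 24 were at least 2-fold higher and 1 lower than in other leukocytes (median log2 ratio 1.99). Within suffixes this median spanned 1.01 to 2.12. Against C1q-positive barcodes, 15 of 30 measured were higher and 2 lower (median 1.00). Lpl, the secreted lipase that frees fatty acids from triglyceride, stood at 3018, 2845, 2343, 1816, 1918 and 1812 CPM in suffixes 1 to 6 of the members, against 131 CPM in other leukocytes and 221 CPM in C1q-positive barcodes. A UMI of Lpl was found in 97.8% of members, against 9.26% of other leukocytes and 2.66% of lymphocyte barcodes, and in 80.5%, 4.53% and 1.42% after thinning. The sterol exporter Abcg1 stood at 1091 to 1997 CPM in the suffixes of the members, against 108 CPM in other leukocytes (log2 3.73, 3.65 to 3.81). Lpl and Abcg1 were higher in suffixes 1 to 3 than in suffixes 4 to 6. Cidec, which builds large lipid droplets, had 939 UMIs in members (156 CPM), against 124 UMIs in other leukocytes (9.27 CPM) and 1 UMI in C1q-positive barcodes. Fabp1, the liver-type fatty acid carrier, was 14.1-fold higher than in other leukocytes (log2 3.82) and stood at 322.5 CPM in members, against 5.25 CPM in C1q-positive barcodes. Without suffix 4 its log2 ratio was 4.66.

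Some lipid genes did not share this pattern. The desaturase gene Scd1 stood at 25.1 CPM in members, against 68.1 CPM in other leukocytes, with 162 CPM in lymphocyte barcodes. Within single suffixes its log2 ratio to other leukocytes spanned -1.445 to 0.052. Npc2, which moves cholesterol out of lysosomes, stood at 478 CPM in members, against 497 CPM in other leukocytes and 872 CPM in C1q-positive barcodes. Apoe, a lipid carrier that macrophages secrete, stood at 510 CPM in members, against 912 CPM in other leukocytes and 8665 CPM in C1q-positive barcodes (log2 -4.09, -4.15 to -4.03).

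Lysosomal genes were mostly higher than in other leukocytes. Of 32 measured, 26 were higher and 1 lower than in other leukocytes (median log2 ratio 1.67). Within suffixes this median spanned 0.54 to 1.98. Against C1q-positive barcodes 6 were higher, 4 were lower and 22 lay within 2-fold (median 0.05). Ctsk, a cathepsin that cuts collagen, stood at 233 CPM in members, against 18.9 CPM in other leukocytes and 53.6 CPM in C1q-positive barcodes. Tfec, a regulator of lysosomal genes, stood at 125 CPM in members, against 10.0 CPM in other leukocytes and 27.3 CPM in C1q-positive barcodes. Ctsd, the aspartic cathepsin, stood at 2278, 1765, 2231, 3852, 2400 and 2097 CPM in suffixes 1 to 6 of the members, against 432 CPM in other leukocytes and 2155 CPM in C1q-positive barcodes. It was highest in suffix 4. The protease inhibitor gene Cst3 was lower, at 815 CPM in members, against 1873 CPM in other leukocytes and 3780 CPM in C1q-positive barcodes. Its log2 ratio to other leukocytes was -1.20, but -0.90, within 2-fold, with barcodes thinned. Lyz1, a second lysozyme gene, stood at 38.5 CPM in members, against 40.4 CPM in other leukocytes and 154.5 CPM in C1q-positive barcodes. Lyz1 and Lyz2 are close copies whose reads the counting may split unevenly.

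Of 27 measured receptors for uptake and sensing, 19 were higher and 1 lower than in other leukocytes (median log2 ratio 1.66). Within suffixes this median spanned 0.92 to 1.89. Against C1q-positive barcodes, 11 were higher and 7 lower. Mrc1, the mannose receptor, varied little across suffixes, at 745, 741, 703, 715, 719 and 844 CPM in members, against 54.6 CPM in other leukocytes and 233 CPM in C1q-positive barcodes. Mertk, which binds dying cells, stood at 197 CPM in members, against 17.9 CPM in other leukocytes (log2 3.46, 3.26 to 3.67). Clec4n, a receptor for fungal sugars also called dectin-2, was 11.2-fold higher than in other leukocytes (log2 3.48), or 4.12 on the log2 scale without suffix 4. Cd14, the endotoxin co-receptor, stood at 104 CPM in members, against 68.3 CPM in other leukocytes and 501 CPM in C1q-positive barcodes. The integrin gene Itgam, which encodes CD11b, stood at 5.83 CPM in members, against 53.7 CPM in other leukocytes and 178 CPM in C1q-positive barcodes. A low Itgam beside a high Itgax and Siglecf is the surface pattern by which these cells are told from interstitial macrophages.

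Genes of interstitial and monocyte-derived macrophages were mostly lower over all suffixes. Of 15 measured, 12 were lower and none higher than in other leukocytes (median log2 ratio -2.19). Within single suffixes the median spanned -3.46 to 0.42, with no measured minimum there and sums under 3 UMIs set to 3. In suffix 3 the log2 ratios of C1qa, C1qc and Ms4a7 were 2.68, 3.58 and 3.17. C1qa had 5 UMIs in the members of suffix 3. Such ratios rest on few UMIs and can be set by the limit of 3, so they show no reversal. Against C1q-positive barcodes, all 19 measured were lower, but C1qa, C1qb and C1qc, which chose those barcodes, are among them. C1qa stood at 2.73, 9.14, 16.0, 19.6, 51.0 and 0 CPM in suffixes 1 to 6 of the members, against 178 CPM in other leukocytes and 3187 CPM in C1q-positive barcodes, and 37.7 CPM in lymphocyte barcodes. The level over all members, 21.3 CPM, lay below that of the lymphocyte barcodes. Ccr2, the chemokine receptor of monocytes, stood at 25.8 CPM in members, against 279 CPM in other leukocytes. F13a1, a clotting factor gene of monocytes, stood at 6.66 CPM in members, against 106 CPM in other leukocytes, and its log2 ratio of -3.99 was -3.25 without suffix 4 and -4.66 without suffix 5. Ms4a7 stood at 7.82 CPM in members, against 18.8 CPM in other leukocytes and 270 CPM in C1q-positive barcodes. Its log2 ratio to other leukocytes of -1.27 was -0.44 without suffix 5. Sepp1 (selenoprotein P) and Cd81 were within 2-fold of other leukocytes, at 438 and 153 CPM in members, against 298 and 120 CPM.

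Genes linked to scar-associated macrophages were divided. Of 19 measured, 13 were higher and 1 lower than in other leukocytes (median log2 ratio 1.61), but against C1q-positive barcodes 5 were higher and 10 lower (median -0.96). Over all settings tried, the first median spanned 0.84, with suffixes weighted equally and so within 2-fold, to 2.43, with barcodes thinned. Within single suffixes it spanned 0.245 to 3.58, where sums under 3 UMIs were set to 3. Cd9, a tetraspanin, was high in every suffix, at 2021 to 2865 CPM, against 211 CPM in other leukocytes and 541 CPM in C1q-positive barcodes. The growth factor gene Pdgfc stood at 31.0 CPM in members, against 2.84 CPM in other leukocytes and 18.9 CPM in C1q-positive barcodes, with a log2 ratio to other leukocytes of 3.45, or 4.21 without suffix 4. Il1rn, which encodes the blocker of the IL-1 receptor, stood at 141 CPM in members, against 13.8 CPM in other leukocytes. Its log2 ratio was 3.35, or 4.00 without suffix 4. Timp2, a protease inhibitor gene, stood at 119.5 CPM in members, against 95.5 CPM in other leukocytes and 578 CPM in C1q-positive barcodes. Retnla, a marker of alternative activation, stood at 30.1 CPM in members, against 76.1 CPM in other leukocytes, with 162 of its 181 UMIs in suffix 5 and 154 in a single member. Its log2 ratio of -1.34 was -4.27 without suffix 5 and -0.28 without suffix 4.

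MHC class II genes were mostly lower than in C1q-positive barcodes and mostly within 2-fold of other leukocytes. Of 9 measured class II and co-stimulation genes, 2 were at least 2-fold lower and none higher than in other leukocytes (median log2 ratio -0.78, and -0.82 to 0.13 within suffixes), and 7 of 10 were lower than in C1q-positive barcodes (median -2.26). H2-Aa stood at 862, 1086, 1071, 769, 1312 and 1100.5 CPM in suffixes 1 to 6 of the members, against 1373 CPM in other leukocytes and 4534 CPM in C1q-positive barcodes. Cd86, a co-stimulatory ligand, stood at 11.3 CPM in members, against 38.4 CPM in other leukocytes and 89.3 CPM in C1q-positive barcodes. H2-DMb2, a peptide-loading chain of B cells, stood at 23.5 CPM in members, against 145 CPM in other leukocytes, while its copy H2-DMb1 stood at 315 CPM in members, against 172.5 CPM in other leukocytes. The 2 genes are close copies, and the counting may split their reads unevenly. H2-Aa stood at 1454 CPM in lymphocyte barcodes, which include B cells that express it, so its free-RNA level is not known here.

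Some MHC class I genes were lower than in other leukocytes. Of 10 measured, 4 were lower and none higher (median log2 ratio -0.62), and all 10 lay within 2-fold of C1q-positive barcodes. B2m, the shared light chain of class I, stood at 2016 CPM in members, against 2124 CPM in other leukocytes. The 4 lower genes were H2-Q7, the peptide transporter gene Tap1, and the immunoproteasome genes Psmb8 and Psmb9. Psmb8 stood at 149.8 CPM in members, against 375 CPM in other leukocytes.

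Interferon response genes were low. Of 7 measured of 19, 5 were lower and none higher than in other leukocytes (median log2 ratio -1.67). Ifitm3, which blocks virus entry, stood at 49.1, 75.7, 147, 73.1, 82.5 and 37.9 CPM in suffixes 1 to 6 of the members, against 861 CPM in other leukocytes and 350 CPM in C1q-positive barcodes. Every suffix of the members lay below both pooled levels. Irf7, the regulator that amplifies interferon, had 16 UMIs in all members (2.66 CPM), against 28.1 CPM in other leukocytes and 3.15 CPM in C1q-positive barcodes.

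Cytokine and chemokine genes split by gene. Of 15 measured, 5 were higher and 6 lower than in other leukocytes (median log2 ratio -0.42, and -1.56 to 1.25 within suffixes), and 4 were higher and 10 lower than in C1q-positive barcodes. Il18, an epithelial and macrophage interleukin, stood at 380 to 454 CPM in the suffixes of the members, against 39.1 CPM in other leukocytes and 53.6 CPM in C1q-positive barcodes. The chemokine gene Ccl6 stood at 3495, 2900, 3062, 4592, 3604 and 2542.5 CPM in suffixes 1 to 6 of the members, against 542 CPM in other leukocytes and 1771 CPM in C1q-positive barcodes. Osm, which encodes the cytokine oncostatin M, stood at 54.6, 78.3 and 115 CPM in suffixes 1 to 3 of the members and at 219, 204 and 218 CPM in suffixes 4 to 6, against 48.6 CPM in other leukocytes. Ccl5, a chemokine of T and NK cells, stood at 57.8 CPM in members, against 1732 CPM in other leukocytes and 967 CPM in lymphocyte barcodes. It reached 254 CPM in suffix 5, where 1 member held 224 of the 274 UMIs, and 4.09 to 20.3 CPM in the members of the other suffixes, and its log2 ratio of -4.91 was -6.42 without suffix 5 and -4.29 without suffix 4. Ccl17 and Ccl22, which draw T cells, stood at 3.99 and 5.33 CPM in members, against 49.0 and 22.0 CPM in other leukocytes. Without suffix 5 the log2 ratio of Ccl17, -3.62, was -2.88. Ccl4 stood at 11.99 CPM in members, against 53.8 CPM in other leukocytes. Within the 5 suffixes with 20 or more members, the log2 ratio of Ccl4 spanned -3.745 to 0.31 and was below 0 in 3. Those of Ccl17 and Ccl22 reached 1.58 and 1.94 in a single suffix, where few UMIs and the limit of 3 can set them.

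Genes that store iron and bind metals were higher. Of 19 measured iron and redox genes, 10 were higher and 1 lower than in other leukocytes (median log2 ratio 1.19). Within suffixes this median spanned 0.79 to 1.31. Against C1q-positive barcodes, 6 were higher and 2 lower (median 0.52). The metallothionein genes Mt1 and Mt2 were 9.08-fold and 9.94-fold higher than in other leukocytes, and 2.17-fold and 5.64-fold higher than in C1q-positive barcodes. Mt2 varied more across suffixes, with 9.59 CPM in the members of suffix 3, against 114 to 388 CPM in the other suffixes. Hmox1, which breaks down haem, stood at 94.1 CPM in members, against 14.8 CPM in other leukocytes. The ferritin genes Ftl1 and Fth1 were 3.87-fold and 3.37-fold higher than in other leukocytes, and lay within 2-fold of C1q-positive barcodes. Slc11a1, an iron transporter of the phagosome, stood at 7.99 CPM in members, against 26.9 CPM in other leukocytes and 128 CPM in C1q-positive barcodes.

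Respiratory chain genes lay close to the other sets. None of the 22 measured respiratory chain genes was 2-fold apart from other leukocytes or from C1q-positive barcodes (medians 0.10 and 0.03). The highest was Uqcrq, a subunit of complex III, at 509 CPM in members, against 256 CPM in other leukocytes. Of 14 measured glycolysis genes, 3 were higher and 1 lower than in other leukocytes (median 0.25), about as often as among all genes. Pfkp, an isoform of the phosphofructokinase step, stood at 75.9 CPM in members, against 29.5 CPM in other leukocytes. Slc16a3, which exports lactate, stood at 29.0 CPM in members, against 11.7 CPM in other leukocytes, but its log2 ratio was 0.72, within 2-fold, with barcodes thinned. The hexokinase gene Hk1 stood at 8.32 CPM in members, against 24.1 CPM in other leukocytes.

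Immediate early genes, which answer stimulation and cell dissociation within minutes, passed 2-fold about as often as all genes did. Of 18 measured, 2 were higher and 3 lower than in other leukocytes (median log2 ratio -0.22), while 11 were lower and none higher than in C1q-positive barcodes (median -1.31). Egr2, a regulator used by alveolar macrophages, stood at 81.1 to 125 CPM in the suffixes of the members, against 13.2 CPM in other leukocytes. Klf2, a factor of quiescent lymphocytes and monocytes, stood at 64.4 CPM in members, against 748 CPM in other leukocytes and 311 CPM in C1q-positive barcodes. Socs3, an inhibitor of cytokine signalling, stood at 12.7 CPM in members, against 46.5 CPM in other leukocytes. Fosb was barely past 2-fold, at 165 CPM in members, against 82.4 CPM in other leukocytes, and its log2 ratio of 1.00 was 0.92 to 0.93 without suffix 3, 5 or 6.

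Outside all lists, the measured genes with the highest ratios to other leukocytes included several whose usual sites are other tissues. Vstm2a, an immunoglobulin-domain gene, stood at 42.9 to 79.9 CPM in the suffixes of the members, against 2.17 CPM in other leukocytes (log2 4.60, 4.05 to 5.20). C1q-positive barcodes had 0 UMIs of it, so members were at least 16.6-fold higher, with 3 counts as the limit for that set. Perp, a junction protein of stratified epithelium, stood at 128 CPM in members, against 5.83 CPM in other leukocytes, and was at least 40.5-fold higher than in C1q-positive barcodes, which also had 0 UMIs. The potassium channel gene Kcnn3 stood at 103 CPM in members, against 5.38 CPM in other leukocytes. Kcnip4, a potassium channel partner, stood at 42.8 CPM in members, against 1.79 CPM in other leukocytes. Pdk4, which turns cells from glucose to fat oxidation, stood at 21.6 CPM in members, against 1.12 CPM in other leukocytes, with a log2 ratio of 4.27, or 5.62 without suffix 4. The mitochondrial carrier gene Ucp3 and the zinc transporter gene Slc39a2 had log2 ratios of 4.39 and 4.56. That of Slc39a2 was 5.43 without suffix 4.

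Epcam, the epithelial antigen against which the cells were sorted, was present in alveolar macrophages. It stood at 149, 180, 211, 57.8, 96.4 and 66.4 CPM in suffixes 1 to 6 of the members (99.5 CPM in all), against 15.4 CPM in other leukocytes (log2 2.69, 2.46 to 2.93) and 10.45 CPM in lymphocyte barcodes. A UMI of Epcam was found in 31.4% of members, against 3.52% of other leukocytes and 2.03% of lymphocyte barcodes, and in 10.4%, 1.24% and 0.637% after thinning. Krt19 and Perp, also used by epithelium, were higher as well. Of 11 listed epithelial markers, Epcam included, 8 were under 10 CPM in members, and Scgb3a1 had 0 UMIs. The surfactant gene Sftpc stood at 28.8 CPM in members, against 193 CPM in other leukocytes. The summed level of the 11 markers spanned 90.4 to 273 CPM over the suffixes of the members, against 988 CPM in other leukocytes and 158 CPM in lymphocyte barcodes. Ptprc stood at 514 CPM in members, against 602 CPM in other leukocytes, which were chosen by it. A Ptprc UMI was found in 1061 members and in none of the other 168. The endothelial antigen of the sort, CD31, is encoded by Pecam1, which stood at 14.7 CPM in members, against 76.3 CPM in other leukocytes and 116 CPM in lymphocyte barcodes.

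A small share of alveolar macrophages was cycling. With UMIs of at least 3 of 15 mitosis genes as the definition, 46 members were cycling (3.74%, exact 95% interval 2.75 to 4.96%), against 91 other leukocytes (2.59%, 2.09 to 3.17%) and 1 of 193 C1q-positive barcodes (0.518%, 0.0131 to 2.85%). After thinning to 1000 UMIs the shares were 2.09% of members and 1.13% of other leukocytes. Of 190 thinned C1q-positive barcodes 0 met the definition, which at 3 counts allows up to 1.58% that meet it at this depth and does not bound the share of cycling cells. In suffixes 1 to 6, 7, 15, 3, 11, 7 and 3 members were cycling, or 3.27%, 6.49%, 4.76%, 2.06%, 4.02% and 23.1%. The interval for suffix 6, with 13 members, runs from 5.04 to 53.8%. Over all members, 9 of 15 S phase genes and 9 of 15 mitosis genes were measured against other leukocytes, of which 1 S phase gene was higher and 1 mitosis gene lower. Against C1q-positive barcodes only 4 of 15 mitosis genes were measured, of which 3 were higher, against 15.4% of all measured genes. A gene low in C1q-positive barcodes is measured only if members are high. This count can therefore be set by the measured minimum and supports nothing. Mki67, the proliferation antigen, stood at 61.4, 77.0, 73.5, 10.3, 12.05 and 104 CPM in suffixes 1 to 6 of the members, against 23.3 CPM in other leukocytes. It was lowest in suffixes 4 and 5. Cenpa, a histone of the centromere, was lower, at 26.3 CPM in members, against 58.2 CPM in other leukocytes, but its log2 ratio of -1.15 was -0.65 without suffix 4. Rrm1, a subunit of ribonucleotide reductase, was higher at a log2 ratio of 1.14, or 1.00 without suffix 1.

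Of the alveolar macrophage genes that the rule did not use, Siglecf stood at 131 CPM in the 46 cycling members, against 145 CPM in the 1183 other members, and the interval of the log2 ratio (-0.68 to 0.34) includes 0. Mrc1 stood at 442 CPM in cycling members, against 738 CPM in other members (log2 -0.74, -1.02 to -0.48), and Lpl at 1429.5 CPM, against 2173 CPM. Apoe stood at 161 CPM in cycling members, against 527 CPM in other members. Among genes of dividing cells not used to choose them, Stmn1, which frees tubulin, stood at 621 CPM in cycling members, against 12.4 CPM in other members. Stmn1 falls outside the rule for named genes. The replication clamp gene Pcna stood at 210 CPM in cycling members, against 58.7 CPM in other members. The median depth was 5669.5 UMIs in cycling members, and its part in the choice was not tested.

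A set of 36 members had UMIs of at least 2 C1q genes, 22 of them in suffix 4, 10 in suffix 5, 2 each in suffixes 2 and 3 and none in suffixes 1 and 6. By this choice they hold markers of both types. Siglecf, which neither choice used, stood at 58.5 CPM in these 36, against 149 CPM in the 1193 other members (log2 -1.35, -2.11 to -0.68). Mrc1 stood at 484 CPM in them, against 738 CPM in other members. Apoe stood at 4857 CPM in the 36, against 276 CPM in other members (log2 4.14, 4.03 to 4.24). Mmp12, the macrophage elastase gene, stood at 644 CPM, against 72.3 CPM in other members. Trem2, a lipid-sensing receptor, stood at 507 CPM in the 36, against 142 CPM. Mmp12 and Trem2 fall outside the rule for named genes. Ccr2 stood at 94.3 CPM in them, against 22.1 CPM in other members. Their median depth was 7402.5 UMIs, against 4820 in all members. A barcode that holds 2 cells would also have more UMIs and markers of both types, and its part was not tested.

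Across suffixes, alveolar macrophages of suffix 4 stood apart in a group of genes for matrix, lipid and lysosome that were picked out after their values were seen. Spp1, which encodes osteopontin, stood at 420, 325, 262, 1038, 559 and 579 CPM in suffixes 1 to 6 of the members. In lymphocyte barcodes of the same suffixes it stood at 69.6, 7.60, 6.80, 425, 32.6 and 17.2 CPM, so suffix 4 was high in both. Trem2 stood at 51.8, 43.1, 54.3, 252.5, 93.6 and 133 CPM in members, and in lymphocyte barcodes at 69.3 CPM in suffix 4 and 2.47 to 13.4 CPM elsewhere. Gpnmb, a glycoprotein of lysosome and cell surface, stood at 123, 41.8, 92.7, 254, 111 and 47.4 CPM in members, and its log2 ratio to other leukocytes of 2.68 was 3.73 without suffix 4. Cd63, a tetraspanin of late endosomes, stood at 599 CPM in the members of suffix 4, against 125 to 329 CPM in those of the other suffixes. The fatty acid carrier Fabp5 stood at 707 CPM in suffix 4, against 171 to 399.5 CPM in the other suffixes. Lymphocyte barcodes of suffix 4 were apart in the same genes, at 66.3 CPM of Gpnmb, 190 CPM of Cd63 and 208 CPM of Fabp5, against 0 to 12.3, 4.33 to 36.9 and 5.70 to 28.7 CPM in the other suffixes. Those 80 barcodes also held 353 CPM of Chil3, so some can hold an alveolar macrophage as well. The part of such barcodes was not tested.

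The UMIs of these genes were unevenly spread over members. The 5% of members with the most UMIs of each gene held 91.6% of Mmp12, 80.3% of Apoe, 50.5% of Gpnmb, 49.0% of Fabp5, 45.4% of Spp1, 40.6% of Trem2 and 32.4% of Cd63, against 14.1% of Chil3 and 14.96% of Mrc1. The highest count in a single member was 237 UMIs of Apoe and 200 of Spp1. In members thinned to 1000 UMIs, Trem2 had a UMI in 4.57%, 2.76%, 3.17%, 17.8% and 7.47% of suffixes 1 to 5. Spp1 had a UMI in 24.9%, 27.6%, 17.5%, 39.5% and 33.9%. Over all members, 60.5% had a Spp1 UMI, against 5.11% of other leukocytes and 2.22% of lymphocyte barcodes, and after thinning the shares were 32.7%, 1.79% and 0.686%. Apoe stood at 104, 24.8, 35.2, 818, 462 and 0 CPM in suffixes 1 to 6 of the members, and in lymphocyte barcodes at 152, 212, 71.1, 1851, 367 and 368 CPM. The level in members was therefore under that of lymphocyte barcodes in every suffix but suffix 5. The exact upper limit of the 0 in suffix 6 is 35 CPM.

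**Figure D4:**
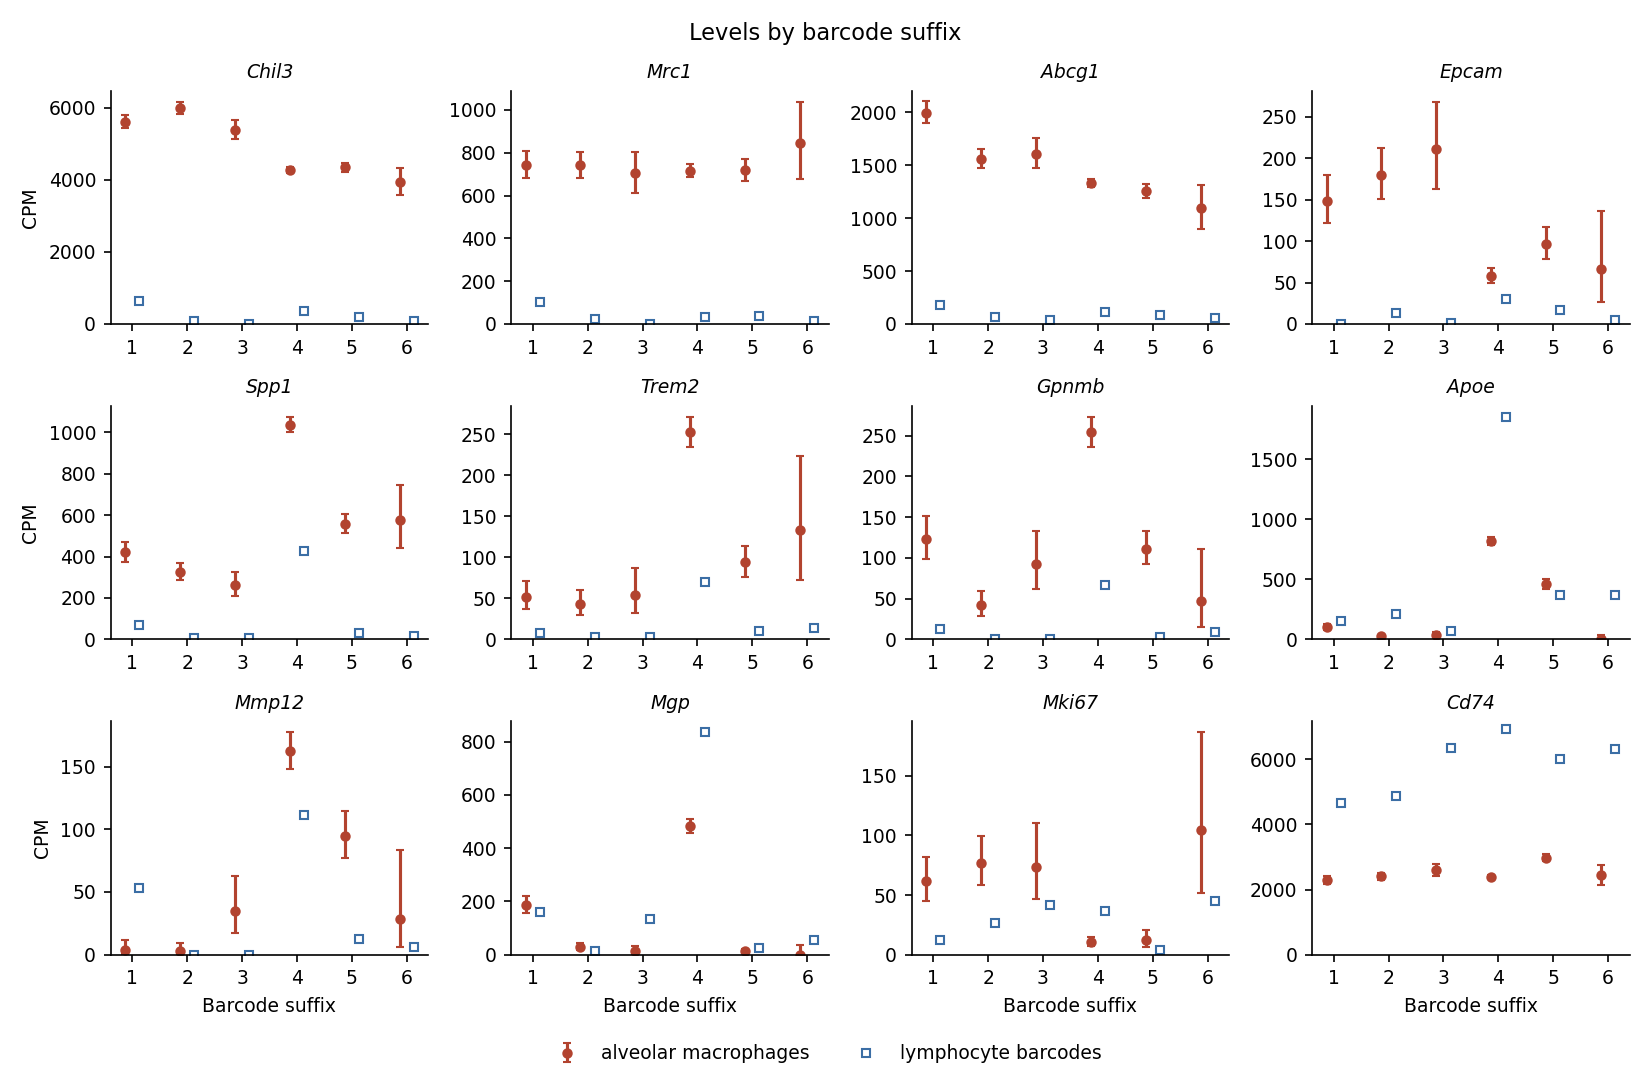
CPM of 12 genes by barcode suffix in alveolar macrophages (filled points, with exact 95% Poisson intervals that cover counting error only) and in lymphocyte barcodes of the same suffix (open squares), on axes that start at 0. Mrc1 spanned 703 to 844 CPM in members, whereas Spp1 was 1038 CPM in suffix 4 and 262 to 579 CPM in the other suffixes.

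Genes of neighbouring cells also differed between suffixes. Mgp, a matrix protein of fibroblasts, stood at 187, 27.4, 12.8, 483, 13.9 and 0 CPM in suffixes 1 to 6 of the members, and at 160, 12.3, 134, 835, 23.5 and 56.3 CPM in lymphocyte barcodes, so it was high in both in suffix 4 and apart in suffix 3. The summed level of 10 fibroblast markers spanned 75.9 to 927 CPM in members, highest in suffix 4, against 942 CPM in other leukocytes and 256 CPM in lymphocyte barcodes. None of the 10 was at 0 in members, and 4 were under 10 CPM. B cell, T cell and NK cell markers, summed over the 6 genes of each list in the table, stood at 14.2, 11.99 and 22.3 CPM in members, against 1348, 684 and 1059 CPM in other leukocytes. Neutrophil markers summed to 96.7 CPM in members, against 2074 CPM in other leukocytes, and dendritic cell markers to 30.0 CPM, against 262 CPM, with Siglech at 0 UMIs in members. Monocyte markers summed to 612 CPM in members, against 1613 CPM in other leukocytes, with 5 of 10 under 10 CPM in members. Of the 612 CPM, Fn1 alone gave 496 CPM, with a UMI in 61.4% of members. The sum is therefore not a measure of monocyte RNA in members. Endothelial markers summed to 145 CPM in members, against 316 CPM in other leukocytes, with 588 CPM in the members of suffix 3 and 9.49 to 249.6 CPM in those of the other suffixes. Platelet and erythroid markers reached 874 CPM in the members of suffix 2, against 6.64 to 115 CPM in those of the other suffixes. In suffix 2, 233 of 237 UMIs of the globin gene Hba-a1 came from 1 member. The part of free RNA and of these cells in the differences between suffixes was not tested. Xist, which is expressed in female cells, stood at 1527 to 1717 CPM in members of suffixes 4 to 6, against 0 to 19.1 CPM in those of suffixes 1 to 3. Ddx3y, a gene of the Y chromosome, had 0 UMIs in members of suffixes 4 to 6 and stood at 106 to 128 CPM in those of suffixes 1 to 3. Fn1, Mgp, Sftpc, Hba-a1, Xist and Ddx3y were named after their values were seen. The sex of the mice and any other difference between these sets of suffixes cannot be told apart.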

How the data were processed

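Single-cell libraries were made with the 10x Single Cell 3′ v2 kit, per the labels' protocols. STAR 2.5.1, Cell Ranger 1.3.0 and mm10 are named in the submitters' processing notes. The sources used here do not state how cells were called. As deposited, the count table has 27998 genes and 10410 barcodes, with whole UMI counts. The deposited normalized table is a signal scaled by the authors to 2631.5 per barcode and was used only for an alternative. Both pool all 6 samples.

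Barcodes with 500 or more genes and at most 10% of UMIs from 13 mt- genes were kept (9994; 318 had too few genes and 105 too many mt- UMIs). The members and gene lists were chosen with earlier results of these data known. Of 415 list and marker symbols, 409 were in the table. UMIs were summed per set and compared as ratios of CPM. Sums under 3 UMIs were set to 3. Genes were called at 2-fold. Intervals are exact (conditional binomial for ratios, Poisson for levels, Clopper-Pearson for shares). The ratio, its interval and the 2-fold call were tested on simulated data. Named genes are the 11 of the rule, Ptprc, Epcam and Pecam1, and up to 4 highest and 4 lowest measured genes of each list. The 15 highest ratios outside the lists and the 10 highest levels were added (166 in all). Other genes are said to fall outside this rule or to have been picked later. Scrublet (scanpy 1.11.5) was run for each suffix and its calls were removed only in an alternative. Python 3.11.15, numpy 2.4.6, scipy 1.17.1 and pandas 2.3.3 were used. Alternatives varied the rule, filters, sets, weighting, depth, measured minimum and suffixes. Values of some genes are not reported here.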

Additional observations from a re-analysis of the deposited data

How the results depend on the processing

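The labels tie no barcode to a sample, so replicate error is unknown. No paired analysis was possible because no test was made and the labels give no replicate numbers. The number of alveolar macrophages was 695 to 1216 with each suffix left out in turn, lowest without suffix 4, and stayed within 1.5 times of 1229 under the other settings. Counts of genes past 2-fold depended on the measured minimum. At 50 CPM, the genes higher and lower numbered 610 and 277 against other leukocytes, 622 and 369 against all other kept barcodes, and 420 and 185 against C1q-positive barcodes. With no minimum they numbered 2267 and 2820, 2762 and 4669, and, for genes lower than in C1q-positive barcodes, 2520. Thinning to 1000 UMIs gave 1064 genes lower than in C1q-positive barcodes, and centring on the median gene gave 784 genes higher than in C1q-positive barcodes. With each suffix left out, the counts spanned 1360 to 1603 and 842 to 1009, 1198 to 1354 and 1226 to 1705, and 1153 to 1528 and 560 to 756. Of 100 named genes past 2-fold against other leukocytes, 95 to 100 stayed past it under each of 20 settings. A change of the measured minimum cannot alter a ratio. Of the 100, 90 were not in the rule, and most were named for the highest or lowest ratios of their lists. These counts are therefore not independent support. Retnla changed sign, to a log2 ratio of 0.074, without the exclusions, and the cause was not tested. The medians of the respiratory chain, S phase, mitosis and immediate early lists changed sign under some settings, with ranges of -0.05 to 0.16, -0.11 to 0.82, -0.40 to 0.97 and -0.40 to 0.01. In suffix 6, 13 members limit every value.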
